A study of Homo sapiens with 15 samples.

Results

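The genes described here encode the proteasome, its immune-type subunits, its activators and inhibitor, its assembly chaperones, and NFE2L1, the gene of the transcription factor NRF1. They were taken by symbol from both RPKM tables: PSM followed by a letter from A to G and a number (48 genes), POMP, and NFE2L1. This gave 50 of the 20468 genes in each table, and PSMB8, PSMB9, PSMB10, PSME1 and PSME2 formed the immune subset. Of these 50 genes, 48 reached a mean of 1 RPKM and were tested in each line. PSMA8 and PSMB11 did not: PSMA8 was at 0 in 14 of 15 libraries, the exception being 0.114 RPKM in MM.1S CO 3. PSMB11 was at 0 except for 0.0370 RPKM in MM.1S TSW 1 and 0.0281 RPKM in RPMI8226 CO 2.

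The study cultured 2 MM cell lines, MM.1S and RPMI8226, for 48 h with or without the stromal line HS5. MM cells were collected from monoculture (MONO), from the upper transwell, where soluble factors passed the membrane (TSW), or from the lower chamber beside adhesive HS5 cells (CO). The collected cells were sorted as CD90-, CD38+. Each condition had 3 libraries in MM.1S and 2 in RPMI8226, 15 in all. The totals behind the RPKM values, recovered from the values themselves as read pairs assigned to genes and not as all pairs sequenced, ran from 9008977 (MM.1S MONO 1) to 19050772 (MM.1S MONO 2). These totals rest on the RPKM values alone.

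The 20S core of the proteasome is built from alpha and beta subunits, and PSMB5, PSMB6 and PSMB7 carry its peptide-cutting sites. Interferons raise PSMB8, PSMB9 and PSMB10, which take the places of those 3 subunits, and PSME1 and PSME2, which form the 11S activator. NRF1 is held at the endoplasmic reticulum and degraded there, and when proteasome activity is short it is processed and drives genes of the core and the 19S particle.

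Promoters of the immune subset are shown because interferon acts through short DNA elements in them. TAP1, a peptide transporter gene, is shown because the start site used for it lies 488 bases from that of PSMB9, on the opposite strand. Sequences run from 150 bases before to 30 bases after an annotated start site, in GRCh38.p14 (RefSeq), 5' to 3' along the strand of the gene. Where a gene had several annotated start sites, the first whose printed window held a match was shown. The PSMB8 site shown, 32844047, lies inside the gene span, which ends at 32844679 on the minus strand. Capitals mark GAAA, 2 bases of any kind and GAAA again, the letters of the interferon-stimulated response element, read on both strands. The windows were PSMB8 (gene ID 5696) chr6:32844018-32844197, minus strand; PSMB9 (5698) chr6:32854042-32854221, plus strand; and PSMB10 (5699) chr16:67936821-67937000, minus strand. The others were PSME1 (5720) chr14:24136044-24136223, plus strand; PSME2 (5721) chr14:24146581-24146760, minus strand; and TAP1 chr6:32853675-32853854, minus strand.
PSMB8: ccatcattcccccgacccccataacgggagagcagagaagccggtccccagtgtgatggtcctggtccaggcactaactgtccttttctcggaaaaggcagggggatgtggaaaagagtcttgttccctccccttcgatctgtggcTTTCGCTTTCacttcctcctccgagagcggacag
PSMB9: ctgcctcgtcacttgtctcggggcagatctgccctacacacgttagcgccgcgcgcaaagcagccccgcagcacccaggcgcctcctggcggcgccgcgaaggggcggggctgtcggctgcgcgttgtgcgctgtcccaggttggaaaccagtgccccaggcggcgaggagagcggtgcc
PSMB10: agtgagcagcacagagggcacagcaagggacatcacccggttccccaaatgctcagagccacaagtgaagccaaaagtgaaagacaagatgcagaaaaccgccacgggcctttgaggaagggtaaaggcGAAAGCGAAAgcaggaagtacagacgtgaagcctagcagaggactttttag
PSME1: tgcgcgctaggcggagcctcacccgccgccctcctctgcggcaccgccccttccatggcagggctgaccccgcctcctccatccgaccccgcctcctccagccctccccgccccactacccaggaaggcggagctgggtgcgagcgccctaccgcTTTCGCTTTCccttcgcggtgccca
PSME2: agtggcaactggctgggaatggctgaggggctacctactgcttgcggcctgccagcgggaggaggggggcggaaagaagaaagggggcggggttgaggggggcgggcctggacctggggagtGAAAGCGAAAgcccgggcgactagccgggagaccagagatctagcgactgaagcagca
TAP1: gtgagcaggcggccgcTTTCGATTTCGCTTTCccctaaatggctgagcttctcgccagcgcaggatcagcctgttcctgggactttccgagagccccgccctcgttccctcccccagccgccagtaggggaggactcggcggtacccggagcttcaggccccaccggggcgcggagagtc
In windows of 300 bases around the start site, these letters were present in 1255 of 35116 promoters (3.57%). Of 54 member promoters, 7 (13.0%) held them. They were present for 7 of the 44 members whose promoter could be matched: PSMB8, PSMB10, PSME1, PSME2, PSMA4, PSMB4 and PSMG4. PSMB9 had none, and the TAP1 window held 2 overlapping matches that lie between the start sites of TAP1 and PSMB9. PSMA7, PSMB1, PSMB6, PSMB7, PSMD4 and PSMG3 were not matched to a promoter. A match describes the letters, and binding was not tested.

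Genes of the cell types present were read before the members. MMP1, COL1A2 and COL3A1, which define stromal cells, were at 0 in every MONO and TSW library of both lines. With COL1A1 and THY1 added, the summed level in MM.1S was 0.150, 0.0926 and 0.139 RPKM in MONO, 0.10, 0.111 and 0.141 in TSW, and 69.7, 78.5 and 65.6 in CO. In RPMI8226 it was 0.485 and 0.540 in MONO, 0.10 and 0.160 in TSW, and 42.9 and 63.5 in CO. The 5 CO libraries therefore held stromal RNA, and the MONO and TSW libraries held almost none. Of the whole stromal list, 32 of 32 genes were in the tables. Its summed level in MM.1S was 188, 203 and 171 RPKM in CO, with MMP1 the most abundant. In RPMI8226 FN1 dominated the list, at a mean of 4150 RPKM in MONO, 1820 in TSW and 2088 in CO, so these MM cells expressed FN1 without HS5. Comparing CO with MONO, 16 stromal genes were higher and 1 lower of 17 tested in MM.1S (16.2% and 15.0% of all genes), and 12 higher and 1 lower of 14 tested in RPMI8226 (30.3% and 41.7%). In TSW against MONO, 1 was higher and 3 lower in MM.1S (14.4% and 12.9% of all genes), and 3 higher and 1 lower in RPMI8226 (29.0% and 38.0%). Plasma-cell genes (10 of 10 in the tables) were led by JCHAIN in both lines, at a mean of 3753, 2075 and 1985 RPKM in MM.1S and 1416, 2469 and 2871 in RPMI8226 for MONO, TSW and CO. In RPMI8226, 7 of 9 tested plasma-cell genes were higher and 2 lower in TSW against MONO (29.0% and 38.0% of all genes), with 7 and 2 in CO against MONO (30.3% and 41.7%). In MM.1S, 4 of 10 were higher and 2 lower in TSW (14.4% and 12.9% of all genes), and 3 higher and 3 lower in CO (16.2% and 15.0%), so the 2 lower were near the share of all genes.

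Of the 15 libraries, 3 stood apart by RPS14P3, trnN and NACA2, genes outside the proteasome that were picked after their values had been seen. RPS14P3 was at 84.2 RPKM in MM.1S MONO 2 and at 94.8 and 93.6 in RPMI8226 TSW 1 and TSW 2, against 2.20 to 6.44 elsewhere. The mitochondrial tRNA gene trnN was at 1.44, 2.22 and 1.53 RPKM in these 3 libraries, against 82.3 to 587 elsewhere. NACA2 was at 62.0, 65.8 and 64.3 RPKM, against 5.73 to 14.0. In RPMI8226 this difference coincides with TSW, so the 2 cannot be told apart in TSW against MONO or CO against TSW, while its MONO and CO libraries had RPS14P3 and NACA2 at the lower levels. Their trnN levels also differed, at 82.3 and 120 RPKM in MONO and 228 and 221 in CO. MM.1S MONO 1 differed from MONO 2 and MONO 3 in other genes outside the proteasome, also picked after their values had been seen. It was lower for DDI2 (4.56 against 13.0 and 11.7 RPKM) and JAK1 (23.1 against 50.5 and 47.1). It was higher for TAPBP (179 against 133 and 129). MM.1S also had uneven member totals. The summed RPKM of the members was 5844, 4987 and 4680 in MONO, 5158, 4838 and 4821 in TSW, and 4011, 4910 and 4566 in CO, so MONO 1 was high and CO 1 low.

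The members differed widely in level. By the mean of the MONO libraries, PSMB4 was the most abundant core beta subunit, at 658, 576 and 512 RPKM in the 3 MM.1S MONO libraries and at 362 and 376 in RPMI8226. By the same mean PSMA7 led the alpha subunits, PSMD2 the non-ATPase subunits of the 19S particle, PSME1 the activators, and PSMG1 the 20S assembly chaperones, in both lines, though some of these ranks changed in TSW or CO. PSMC3 led the ATPases of MONO in MM.1S and PSMC5 in RPMI8226. PSMC1 was the lowest ATPase in both, at 7.98 and 7.07 RPKM in RPMI8226 MONO, and PSMB5 had the lowest MONO mean of the constitutive beta subunits.

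In RPMI8226, coculture split the proteasome genes in opposite directions. The immune-type subunits PSMB8 and PSMB9, the activator subunit PSME1, and NFE2L1 were higher with stroma, whether or not the cells touched it. Most genes of the 19S particle and most 20S assembly chaperones were lower in both stromal conditions, and most genes of the ordinary core were lower in CO. In TSW against MONO, limma called 8 of 48 members higher (29.0% of all tested genes) and 28 lower (38.0% of all). In CO against MONO, 4 were higher (30.3% of all) and 37 lower (41.7% of all). In CO against TSW, 0 were higher (10.1% of all), with 0 at unadjusted p below 0.05 and 0 by voom, and 35 were lower (17.5% of all). The higher counts were thus below the share of all genes, and the lower counts above it, though the lower count in TSW was below it with the fold rule given next. The median log2 fold change of the members was -0.23 in TSW and -0.53 in CO, against -0.08 and -0.09 for all genes, and -0.26 in CO against TSW, where all genes had -0.04. With a fold change above 1.5 also required, 4 members were higher (14.5% of all) and 7 lower (17.9% of all) in TSW. By that rule 3 were higher (16.4% of all) and 21 lower (22.9% of all) in CO. Between CO and TSW it left 0 higher (1.90% of all) in limma, where 0 were also higher at unadjusted p below 0.05 and by voom, and 4 lower (2.39% of all).

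The comparisons with MONO share the same MONO libraries, so their similarity is not independent. Leaving out 1 library gave 20 to 25 lower members in TSW against MONO and 35 to 39 in CO against MONO. The lower count in CO against TSW fell from 35 to 12 without CO 1 and to 16 without CO 2, and the higher count there was 1 without TSW 1. With the TSW libraries left out of the fit, CO against MONO had 4 higher and 39 lower. The p-values measure spread between these libraries, which may be technical because the labels do not say that they were separate cultures. In bulk RNA, fewer cells of a type and less RNA per cell cannot be told apart.

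**Figure D1:**
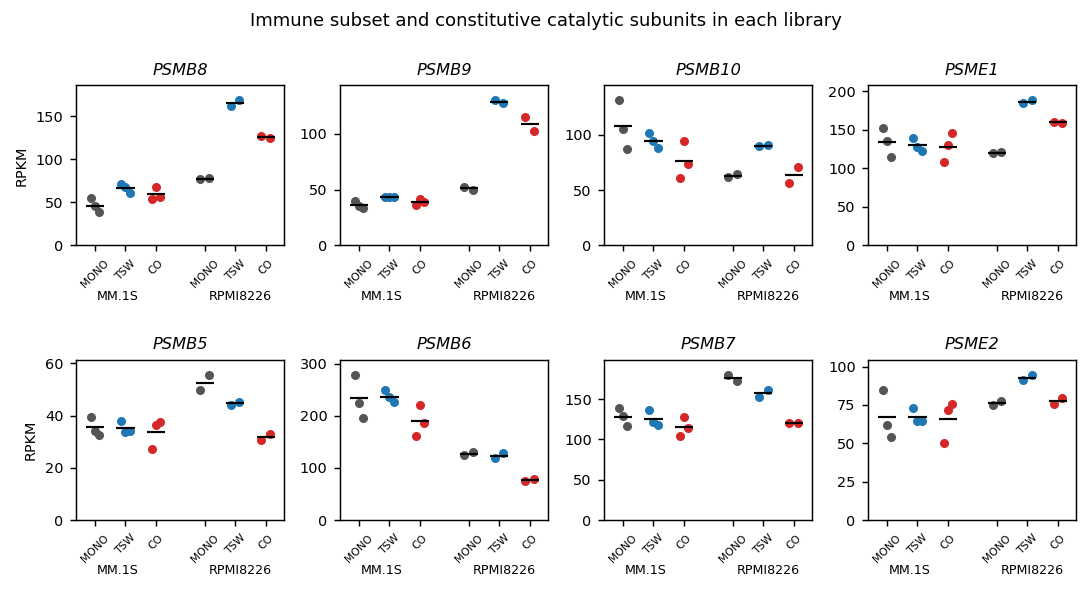
Levels of the immune subset and of PSMB5, PSMB6 and PSMB7 in RPKM (vertical axis) for MONO, TSW and CO of each line (horizontal axis); points are libraries and bars are means. In RPMI8226 the TSW points of PSMB8, PSMB9, PSMB10, PSME1 and PSME2 lie above the MONO points.

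PSMB8 and PSMB9, the immune-type catalytic subunits coded on either side of TAP1 on chromosome 6, rose in RPMI8226 cells in both stromal conditions. PSMB8 was at 76.6 and 78.5 RPKM in MONO, 162 and 169 in TSW, and 128 and 125 in CO. PSMB9 was at 52.6 and 49.4 RPKM in MONO, 130 and 127 in TSW, and 115 and 102 in CO. For both genes the 3 conditions did not overlap. PSMB8 rose by 1.08 on the log2 scale in TSW (limma adjusted p = 2.19e-07) and by 0.70 in CO (adjusted p = 3.6e-06), and was lower in CO than in TSW (log2 fold change -0.38, adjusted p = 0.00224). PSMB9 rose by 1.32 in TSW (adjusted p = 1.75e-07) and by 1.07 in CO (adjusted p = 5.2e-07). The PSMB9 difference between CO and TSW (log2 fold change -0.25, adjusted p = 0.0348) was lost without CO 1 (0.058), CO 2 (0.234), MONO 1 (0.0593), MONO 2 (0.0597), TSW 1 (0.0765) or TSW 2 (0.0826), and with eBayes without trend, loess, median-of-ratios scaling, no filter, a fit of the 2 conditions or quantile normalization, and its adjusted p ranged from 0.00908 to 0.362 over the alternatives.

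PSMB10, the other immune-type catalytic subunit, rose in RPMI8226 TSW. It was at 61.6 and 64.5 RPKM in MONO, 89.4 and 91.0 in TSW, and 56.7 and 70.6 in CO, so CO overlapped MONO and TSW stood above both. PSMB10 rose in TSW (log2 fold change 0.51, adjusted p = 0.000772). It was not called in CO against MONO (adjusted p = 0.953), and it was lower in CO than in TSW (log2 fold change -0.50, adjusted p = 0.00426). Because the TSW libraries stood apart in RPMI8226, the PSMB10 rise there rests on libraries with that difference. After loess correction for GC content and length, PSMB10 was called higher in CO against MONO.

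PSME1 and PSME2, which together make the 11S activator, rose in RPMI8226 TSW. PSME1 was at 119 and 121 RPKM in MONO, 184 and 188 in TSW, and 160 and 159 in CO. PSME2 was at 74.8 and 77.4 RPKM in MONO, 91.0 and 94.7 in TSW, and 75.8 and 79.7 in CO. PSME1 kept the 3 conditions apart, while PSME2 in CO overlapped MONO. PSME1 rose by 0.63 in TSW (limma adjusted p = 8.16e-06) and by 0.41 in CO (adjusted p = 0.000141). PSME2 rose by 0.28 in TSW (adjusted p = 0.00335) and was not called in CO (adjusted p = 0.704). Like that of PSMB10, the PSME2 rise rests on the TSW libraries that stood apart. PSME1 was lower in CO than in TSW (log2 fold change -0.22, adjusted p = 0.0244), a call lost without CO 1 (0.117), CO 2 (0.116), MONO 1 (0.0609), MONO 2 (0.0615) or TSW 2 (0.0612), and with eBayes without trend, loess, median-of-ratios scaling, a fit of the 2 conditions or quantile normalization, with a range of 0.0103 to 0.366. PSME2 was also lower in CO than in TSW (log2 fold change -0.25, adjusted p = 0.0186), a call lost without CO 1 (0.143), CO 2 (0.0622) or TSW 2 (0.0649), and with quantile normalization, with a range of 0.00584 to 0.143. Across the immune subset, 5 of 5 were higher in TSW (29.0% of all genes) and 3 of 5 in CO (30.3% of all) against MONO, and the 3 in CO became 5 after loess correction for GC content and length. The 5 lower in CO than in TSW (17.5% of all genes) were 2 without CO 1, CO 2 or TSW 2, and 3 without MONO 1 or MONO 2.

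The transcript ratio within each catalytic pair shifted to the immune form in RPMI8226. PSMB8 made up 60.7% and 58.5% of PSMB5 plus PSMB8 in MONO, 78.5% and 78.9% in TSW, and 80.6% and 79.2% in CO. PSMB9 made up 29.6% and 27.6% of PSMB6 plus PSMB9 in MONO, 52.4% and 49.8% in TSW, and 60.5% and 56.4% in CO. PSMB10 made up 25.5% and 27.2% of PSMB7 plus PSMB10 in MONO, 36.9% and 36.2% in TSW, and 31.9% and 37.0% in CO. For these 3 pairs the MONO libraries lay below the TSW and CO libraries. CO reached the same shares as TSW or higher ones for PSMB8 and PSMB9 although their own levels were lower there, because PSMB5 and PSMB6 were lower too. These shares were not tested, and transcript shares do not give the makeup of assembled proteasomes. In MM.1S the PSMB8 share had a mean of 56.5% in MONO, 65.4% in TSW and 63.8% in CO, and the PSMB10 share went the other way, at 45.4%, 43.1% and 39.5%. The PSMB9 share there had means of 13.6%, 15.5% and 17.0%, while the share of the 3 pairs summed was 32.3%, 34.0% and 33.9%.

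**Figure D2:**
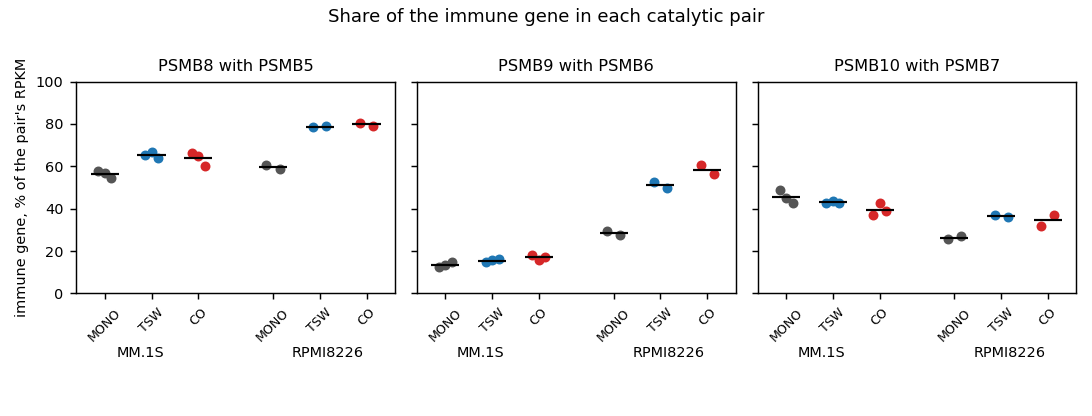
Share of the immune-type subunit in its catalytic pair, in percent of summed RPKM (vertical axis), by condition and line (horizontal axis); points are libraries and bars are means. In RPMI8226 the shares in TSW and CO lie above those in MONO.

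PSMB5, PSMB6 and PSMB7, the ordinary catalytic subunits, were lowest in CO in RPMI8226. PSMB5 was at 49.6 and 55.7 RPKM in MONO, 44.1 and 45.1 in TSW, and 30.8 and 32.9 in CO. PSMB6 was at 125 and 130 RPKM in MONO, 118 and 129 in TSW, and 75.1 and 79.2 in CO. PSMB7 was at 180 and 172 RPKM in MONO, 153 and 161 in TSW, and 121 and 120 in CO. For PSMB6, TSW overlapped MONO, and for these 3 genes CO lay below the other libraries. PSMB5 in CO against MONO fell by 0.71 on the log2 scale (limma adjusted p = 1.48e-05), PSMB6 by 0.72 (6.12e-06) and PSMB7 by 0.54 (2.45e-05). In TSW against MONO, PSMB6 was not called (adjusted p = 0.576). PSMB5 fell there by 0.23 (adjusted p = 0.0228, range 0.0072 to 0.223), a call lost without MONO 2 (0.223) or TSW 1 (0.0662), and with quantile normalization or median-of-ratios scaling. PSMB7 fell by 0.17 (adjusted p = 0.0393, range 0.0231 to 0.248), a call lost without CO 1 (0.0604), CO 2 (0.0602), MONO 1 (0.242), MONO 2 (0.0933) or TSW 1 (0.098), and with voom, eBayes without trend, loess, median-of-ratios scaling or a fit of the 2 conditions. Between CO and TSW, PSMB6 was lower in CO (log2 fold change -0.67, adjusted p = 0.000218).

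PSMA7, the most abundant alpha subunit in MONO, stepped down from MONO to TSW to CO in RPMI8226. Its levels were 254 and 255 RPKM in MONO, 173 and 176 in TSW, and 108 and 123 in CO, without overlap. PSMA7 fell by 0.54 in TSW (limma adjusted p = 9.36e-05) and by 1.13 in CO (adjusted p = 3.07e-07), and was lower in CO than in TSW (log2 fold change -0.59, adjusted p = 0.000569). PSMB4 was at 362 and 376 RPKM in MONO, 348 and 373 in TSW, and 254 and 272 in CO, and fell in CO against MONO (log2 fold change -0.49, adjusted p = 9.18e-05). PSMA5 was at 38.9 and 40.5 RPKM in MONO, 41.3 and 42.7 in TSW, and 28.6 and 29.5 in CO, and fell in CO (log2 fold change -0.44, adjusted p = 0.000214). PSMB3 was an exception in TSW: it was at 281 and 302 RPKM in MONO, 362 and 394 in TSW, and 229 and 240 in CO. PSMB3 rose in TSW (log2 fold change 0.37, adjusted p = 0.000917) and fell in CO (log2 fold change -0.31, adjusted p = 0.00244), but its fall was lost after loess correction (adjusted p = 0.242, range 0.000253 to 0.242). Between CO and TSW, PSMB3 was lower in CO (log2 fold change -0.69, adjusted p = 0.000205), and so was PSMA2 (log2 fold change -0.60, adjusted p = 0.00105), at 110 and 110 RPKM in MONO, 114 and 106 in TSW, and 66.3 and 78.4 in CO. PSMA1 rose in TSW as well (log2 fold change 0.33, adjusted p = 0.00308). These 2 rises rest on the TSW libraries that stood apart, and in CO against MONO neither gene was called higher, except PSMA1 after median-of-ratios, quantile or loess scaling. Against MONO, 5 of 7 tested alpha and 7 of 7 constitutive beta subunits were lower in CO (41.7% of all genes), with 3 of 7 and 3 of 7 in TSW, near the share of all genes (38.0%). The 3 beta subunits lower in TSW became 0 after median-of-ratios scaling or without MONO 2, and 1 without MONO 1 or TSW 1.

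Most genes of the 19S particle, which recognizes and unfolds tagged proteins, were lower in RPMI8226 in both stromal conditions. PSMD2 was at 247 and 256 RPKM in MONO, 161 and 170 in TSW, and 139 and 140 in CO. PSMC5 was at 128 and 132 RPKM in MONO, 85.2 and 91.5 in TSW, and 67.9 and 69.9 in CO. PSMC3 was at 96.5 and 92.7 RPKM in MONO, 57.3 and 59.1 in TSW, and 52.0 and 48.3 in CO. For PSMD2, PSMC5 and PSMC3 the 3 conditions did not overlap. PSMD2 fell by 0.60 in TSW (limma adjusted p = 1.54e-05) and by 0.85 in CO (adjusted p = 9.14e-07). PSMC5 fell by 0.55 in TSW (adjusted p = 4e-05) and by 0.91 in CO (adjusted p = 7.84e-07). PSMC3 fell by 0.69 in TSW (adjusted p = 1.02e-05) and by 0.90 in CO (adjusted p = 1.01e-06). PSMC1, the lowest ATPase, was at 7.98 and 7.07 RPKM in MONO, 3.88 and 4.29 in TSW, and 3.90 and 4.63 in CO, and fell in TSW (log2 fold change -0.75, adjusted p = 0.000134) and in CO (log2 fold change -0.70, adjusted p = 0.000176).

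PSMD6 and PSMD12, scaffold subunits of the 19S lid, followed the same direction in RPMI8226. PSMD6 was at 67.4 and 59.3 RPKM in MONO, 46.7 and 44.6 in TSW, and 38.4 and 39.7 in CO. PSMD12 was at 75.7 and 69.4 RPKM in MONO, 49.7 and 40.4 in TSW, and 52.0 and 49.5 in CO. MONO lay above the other libraries for both, and TSW and CO overlapped for PSMD12. PSMD6 fell by 0.46 in TSW (limma adjusted p = 0.00042) and by 0.68 in CO (adjusted p = 2.03e-05). PSMD12 fell by 0.68 in TSW (adjusted p = 0.000125) and by 0.51 in CO (adjusted p = 0.000817). Of the 19S genes, 4 of 6 ATPases and 10 of 11 non-ATPase subunits were lower in TSW (38.0% of all genes), and 5 and 11 in CO (41.7% of all). Outside the immune subset, 20 of 31 tested core and 19S genes were lower in TSW and 28 of 31 in CO, and other scalings gave 15 to 19 and 27.

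**Figure D3:**
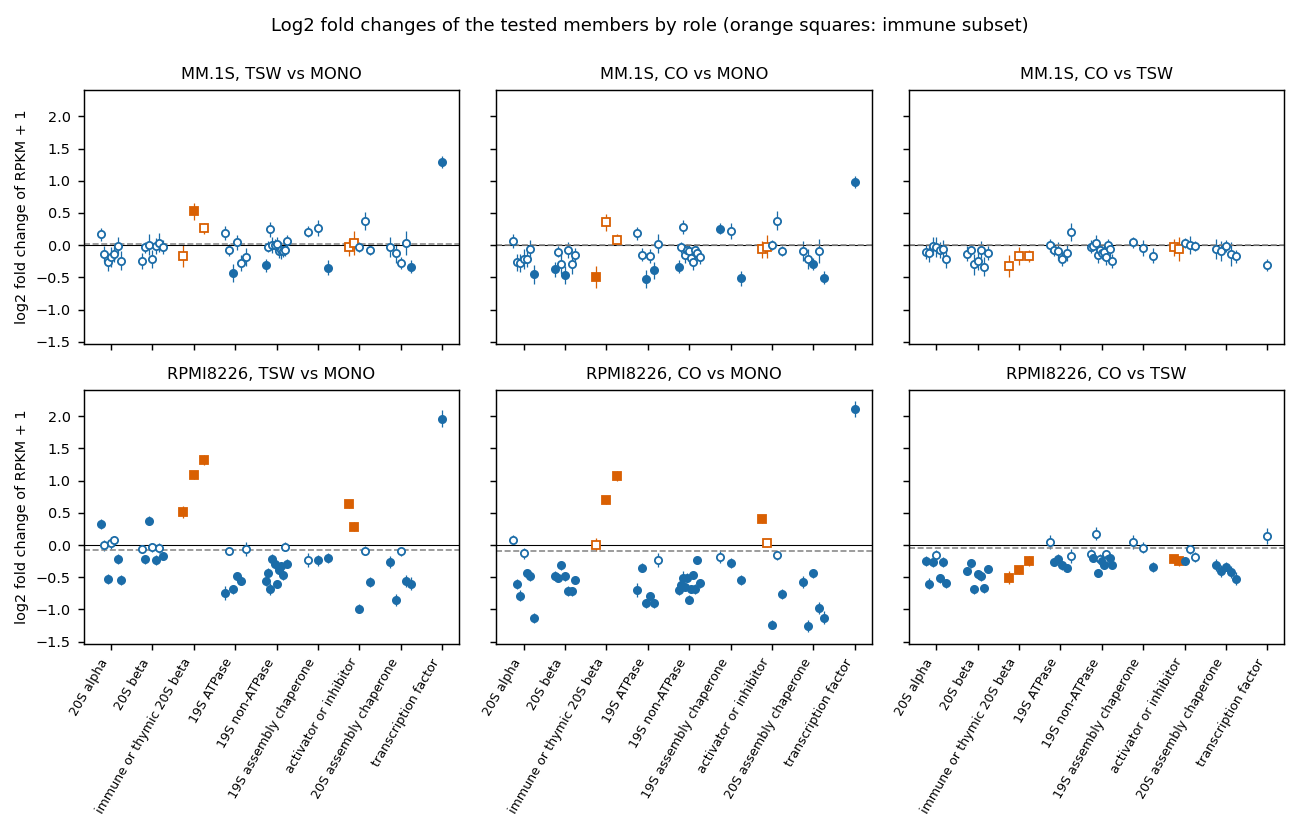
Log2 fold change of RPKM + 1 of each tested member (vertical axis) grouped by role (horizontal axis) for each comparison and line; filled marks have adjusted p below 0.05, orange squares are the immune subset, error bars are standard errors and dashed lines are the median of all genes. Against MONO in RPMI8226 the immune subset lies above most other members.

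PSME3, which forms the nuclear activator of the 20S core, went against PSME1 and PSME2 in RPMI8226. It was at 106 and 103 RPKM in MONO, 52.6 and 52.1 in TSW, and 43.2 and 44.6 in CO, without overlap. PSME3 fell by 0.99 in TSW (limma adjusted p = 4.88e-07) and by 1.23 in CO (adjusted p = 7.02e-08). It was lower in CO than in TSW (log2 fold change -0.25, adjusted p = 0.0184), a call lost without CO 1 (0.128) or CO 2 (0.0720), and with quantile normalization, with a range of 0.00839 to 0.128. PSMF1, the inhibitor of the 20S core, was at 38.9 and 36.8 RPKM in MONO, 24.5 and 25.8 in TSW, and 22.8 and 21.2 in CO. PSMF1 fell by 0.57 in TSW (adjusted p = 7.44e-05) and by 0.76 in CO (adjusted p = 7.25e-06). PSME4 was at 42.5 and 41.5 RPKM in MONO, 41.0 and 37.9 in TSW, and 37.3 and 37.8 in CO, and was not called (adjusted p = 0.288 in TSW and 0.0671 in CO).

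Most chaperones that assemble the 20S core were lower in RPMI8226 in both stromal conditions. PSMG1 was at 86.5 and 77.2 RPKM in MONO, 48.3 and 41.7 in TSW, and 35.4 and 31.9 in CO. PSMG3 was at 15.7 and 14.6 RPKM in MONO, 10.0 and 9.88 in TSW, and 6.68 and 7.76 in CO. PSMG4 was at 15.6 and 16.6 RPKM in MONO, 10.1 and 10.4 in TSW, and 6.16 and 7.56 in CO. These 3 genes showed no overlap between conditions. PSMG1 fell by 0.85 in TSW (limma adjusted p = 1.93e-05) and by 1.26 in CO (adjusted p = 7.89e-07). PSMG3 fell by 0.56 in TSW (adjusted p = 0.000342) and by 0.98 in CO (adjusted p = 4.64e-06). PSMG4 fell by 0.60 in TSW (adjusted p = 0.000358) and by 1.13 in CO (adjusted p = 2.93e-06). POMP was at 63.0 and 56.4 RPKM in MONO, 54.5 and 45.1 in TSW, and 38.9 and 40.5 in CO, and fell in CO (log2 fold change -0.58, adjusted p = 0.000306). Its fall in TSW (log2 fold change -0.26, adjusted p = 0.0321, range 0.00437 to 0.22) was lost without CO 1 (0.0616), CO 2 (0.0615), MONO 1 (0.22) or TSW 2 (0.218), and with eBayes without trend, median-of-ratios scaling, no filter, a fit of the 2 conditions or quantile normalization. Of the 5 20S chaperones, 4 were lower in TSW (38.0% of all genes) and 5 in CO (41.7% of all). PSMD9, a 19S chaperone, was at 20.7 and 18.7 RPKM in MONO, 17.0 and 17.0 in TSW, and 13.0 and 13.3 in CO, and fell in CO (log2 fold change -0.55, adjusted p = 0.000132).

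**Figure D4:**
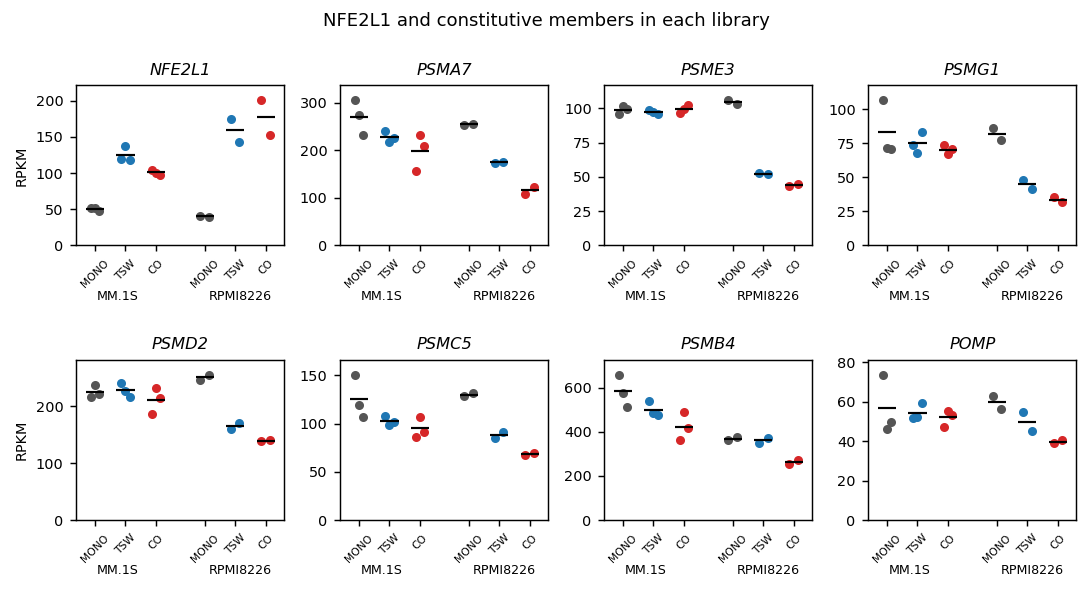
Levels of NFE2L1, PSMA7, PSME3, PSMG1, PSMD2, PSMC5, PSMB4 and POMP in RPKM (vertical axis) by condition and line (horizontal axis); points are libraries and bars are means. NFE2L1 is high with stroma in both lines, while PSMA7, PSME3 and PSMG1 step down in RPMI8226.

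NFE2L1 (gene ID 4779, chr17:48048359-48061545 in GRCh38.p14) rose with stroma in both lines, with or without contact. In MM.1S it was at 51.7, 52.2 and 47.5 RPKM in MONO, 119, 137 and 118 in TSW, and 105, 100.5 and 97.3 in CO. In RPMI8226 it was at 41.2 and 38.7 RPKM in MONO, 175 and 144 in TSW, and 201 and 153 in CO. MONO lay below the other libraries in both lines, and TSW and CO overlapped in RPMI8226. NFE2L1 rose by 1.29 on the log2 scale in MM.1S TSW (SE 0.090, limma adjusted p = 3.31e-06) and by 0.98 in MM.1S CO (adjusted p = 2.2e-05). In RPMI8226 it rose by 1.96 in TSW (adjusted p = 4.06e-07) and by 2.11 in CO (adjusted p = 1.71e-07), and it was not called between CO and TSW (adjusted p = 0.425). These 4 calls held under every alternative tried, including without MM.1S MONO 2. Transcript level does not report whether the NRF1 protein was processed or active, which was not tested.

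The genes that act on NRF1 were called in both directions, with lower counts below or near the share of all genes in both lines. NFE2L1 is among the 14 genes of that list. In RPMI8226, 9 of 14 were higher and 4 lower in TSW (29.0% and 38.0% of all genes), and 7 higher and 4 lower in CO (30.3% and 41.7%). In MM.1S, 4 were higher and 1 lower in TSW (14.4% and 12.9%), and 4 higher and 2 lower in CO (16.2% and 15.0%). There the 1 lower in TSW became 0 without CO 3, MONO 2 or any of the TSW libraries. The 4 higher in CO became 2 without CO 1, and the 2 lower became 0 without CO 1 or CO 3 and 1 without MONO 2, MONO 3 or any of the TSW libraries. DDI2, the protease that releases NRF1, was at 18.2 and 18.0 RPKM in RPMI8226 MONO, 8.41 and 9.80 in TSW, and 8.94 and 9.0 in CO. DDI2 fell in RPMI8226 TSW (log2 fold change -0.92, adjusted p = 7.88e-06) and CO (log2 fold change -0.94, adjusted p = 4.94e-06), opposite to NFE2L1. SEL1L, of the degradation complex at the endoplasmic reticulum, was at 15.9 and 16.2 RPKM in MONO, 34.8 and 25.6 in TSW, and 36.1 and 32.1 in CO in RPMI8226, and rose by 0.86 and 1.04. UBXN4 was at 32.5 and 31.9 RPKM in MONO, 54.7 and 43.5 in TSW, and 60.6 and 53.5 in CO, and rose by 0.80 in CO (adjusted p = 5.18e-05). UFD1L fell by 0.90 in CO (adjusted p = 2.93e-06) and MAFK by 0.84 (adjusted p = 2.36e-05). MAFF, a partner of NRF1 on DNA, was at 0.918 and 0.987 RPKM in MONO, 4.39 and 3.88 in TSW, and 5.04 and 5.15 in CO, and rose by 1.39 and 1.64.

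Promoters of PSMC5 and PSMD9, 19S genes called lower in RPMI8226 CO, are shown. Among members outside the immune subset with a match in the printed window, they were picked for the strongest falls in RPMI8226 CO. PSMD3, picked by the same rule, is not shown. Capitals mark TGACNNNGC, the letters of the antioxidant response element that NRF1 binds with small MAF proteins, read on both strands. The windows were PSMC5 chr17:63827571-63827750, plus strand, and PSMD9 chr12:121888640-121888819, plus strand, in GRCh38.p14 (RefSeq). The PSMC5 start site shown, 63827721, was chosen for its match and lies inside the gene span, which starts at 63827431.
PSMC5: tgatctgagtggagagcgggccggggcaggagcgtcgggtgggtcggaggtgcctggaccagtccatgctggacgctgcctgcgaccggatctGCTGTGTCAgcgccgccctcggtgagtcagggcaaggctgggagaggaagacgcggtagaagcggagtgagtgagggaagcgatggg
PSMD9: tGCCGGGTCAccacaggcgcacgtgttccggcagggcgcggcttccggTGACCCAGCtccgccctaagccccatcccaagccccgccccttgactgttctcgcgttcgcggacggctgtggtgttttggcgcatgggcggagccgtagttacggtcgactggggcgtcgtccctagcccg
In windows of 300 bases, 4687 of 35116 promoters (13.3%) and 15 of 54 member promoters (27.8%) held these letters. They were found for 15 of 44 matched members, PSMB9, PSME1 and PSME2 of the immune subset among them. NFE2L1 rose in RPMI8226 CO. PSMC5 and PSMD9 were picked because they fell there, so their opposite direction was fixed by the choice. NRF1 binding was not tested.

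In MM.1S cells most proteasome genes were not called. NFE2L1 rose, PSMB8 rose in TSW, and a small number of core, 19S and chaperone genes were lower, mostly in CO. The genes called lower in CO were PSMA7, PSMB1, PSMB4, PSMB10, PSMC3, PSMC5, PSMD1, PSMD9, PSMG2 and PSMG4, and in TSW PSMC3, PSMD1, PSMD9 and PSMG4. PSME3, PSMG1 and POMP, which fell in RPMI8226, were not called. In TSW against MONO, limma called 2 of 48 members higher (14.4% of all) and 4 lower (12.9% of all). In CO against MONO, 2 were higher (16.2% of all) and 10 lower (15.0% of all). In CO against TSW, 0 were higher (0.384% of all) and 0 lower (0.0492% of all) in limma, with 0 and 3 at unadjusted p below 0.05 and 0 and 0 by voom. With a fold change above 1.5 also required, 1 was higher (6.48% of all) and 0 lower (4.16% of all) in TSW, where limma had 5 lower at unadjusted p below 0.05 without that rule. By that rule 1 was higher (7.13% of all) and 0 lower (4.65% of all) in CO against MONO, and 0 higher (0.374% of all) and 0 lower (0.0394% of all) in CO against TSW. These counts are not a result about the members as a set: the shares were below or near those of all genes, except for the 10 lower in CO, which became 2 without CO 1 or CO 3 and 5 without MONO 2 or any of the TSW libraries. The median log2 fold change of the members was -0.03 in TSW (0.03 after quantile normalization), -0.14 in CO (-0.04 after quantile normalization and -0.09 after loess) and -0.08 in CO against TSW (-0.04 after quantile normalization), with 0.01, 0.01 and -0.00 for all genes.

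The MM.1S counts depended on single libraries. The 2 higher in TSW became 4 without MONO 3 and 1 without TSW 1 or TSW 2, and the 4 lower became 2 without CO 2 or MONO 2, 1 without CO 3 or TSW 1, and 0 without TSW 2 or TSW 3. The 2 higher in CO became 4 without MONO 1 or MONO 3, and 1 without CO 1, CO 3, MONO 2 or any of the TSW libraries. The 10 lower in CO became 2 without CO 1 or CO 3, 6 without MONO 1, and 5 without MONO 2 or any of the TSW libraries. Without MONO 2, the library with high RPS14P3, the counts were thus 2 higher and 2 lower in TSW and 1 higher and 5 lower in CO.

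PSMB8 was the member of the immune subset called higher in MM.1S. Without MONO 1, PSMB9 was called higher in TSW as well, and PSMB8 also in CO. PSMB8 was at 54.6, 45.4 and 38.9 RPKM in MONO, 71.5, 67.4 and 60.7 in TSW, and 53.7, 67.7 and 56.6 in CO, so TSW lay above MONO and CO overlapped both. PSMB8 rose in TSW (log2 fold change 0.52, limma adjusted p = 0.015), a call lost without TSW 1 (0.0633) or TSW 2 (0.0558), with a range of 0.000429 to 0.0633. In CO it was not called (adjusted p = 0.0626). PSMB9 was at 39.9, 34.9 and 33.9 RPKM in MONO, 43.2, 43.5 and 43.7 in TSW, and 35.9, 41.1 and 38.6 in CO, and was not called (adjusted p = 0.0554 in TSW and 0.478 in CO). PSME1 was at 152, 135 and 114 RPKM in MONO, 139, 128 and 123 in TSW, and 109, 130 and 145 in CO, with overlapping conditions (adjusted p = 0.873 and 0.742). PSME2 overlapped too, at 84.9, 61.8 and 54.2 RPKM in MONO, 73.1, 64.5 and 64.7 in TSW, and 50, 71.4 and 75.6 in CO (adjusted p = 0.906 and 0.925).

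PSMB10 was called lower in MM.1S CO, opposite to PSMB8 in TSW. It was at 131, 105 and 86.8 RPKM in MONO, 101, 94.4 and 88.4 in TSW, and 61.2, 94.5 and 73.1 in CO, so MONO and CO overlapped. PSMB10 fell in CO (log2 fold change -0.50, limma adjusted p = 0.048), with a range of 0.0149 to 0.181. The call was lost without CO 1 (0.181), CO 3 (0.128), MONO 1 (0.103), MONO 2 (0.0830), TSW 1 (0.0680), TSW 2 (0.0721) or TSW 3 (0.0671), and with eBayes without trend, no filter, a fit of the 2 conditions, a pseudocount of 0.1, quantile normalization or the replicate block.

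PSMG4 and PSMD9, chaperones of the 20S core and the 19S particle, gave the steadiest falls of the named members in MM.1S CO against MONO. PSMB1, PSMD1 and PSMG2, also called lower there, were not named members, and their alternatives are not given. PSMG4 was at 7.25, 6.76 and 6.27 RPKM in MONO, 4.76, 5.27 and 5.47 in TSW, and 4.27, 4.97 and 4.19 in CO. PSMD9 was at 15.3, 13.6 and 11.8 RPKM in MONO, 11.6, 9.65 and 9.88 in TSW, and 8.37, 9.56 and 9.56 in CO. For both genes MONO lay above the other libraries. PSMG4 fell in CO (log2 fold change -0.50, limma adjusted p = 0.00427), and PSMD9 fell in CO (log2 fold change -0.51, adjusted p = 0.00788, range 0.00184 to 0.0387), under every alternative. PSMG4 also fell in TSW (log2 fold change -0.33, adjusted p = 0.0329), a call lost without MONO 2 (0.0681), TSW 1 (0.122), TSW 2 (0.0862) or TSW 3 (0.0635), and with a fit of the 2 conditions, with a range of 0.0162 to 0.122. PSMD9 fell in TSW too (log2 fold change -0.35, adjusted p = 0.0438, range 0.0105 to 0.155), a call that held without MONO 3 or TSW 1 and was lost without CO 1 (0.0526), CO 2 (0.0613), CO 3 (0.0654), MONO 1 (0.0661), MONO 2 (0.087), TSW 2 (0.155) or TSW 3 (0.139), and with no filter, a fit of the 2 conditions or the replicate block.

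PSMC3 and PSMC5, ATPases of the 19S particle, were lower in MM.1S CO. PSMC3 was at 208, 145 and 137 RPKM in MONO, 124, 115 and 116 in TSW, and 108, 113 and 114 in CO, with MONO 1 far above the rest. PSMC3 fell in CO (log2 fold change -0.52, adjusted p = 0.0169), a call lost without CO 1 (0.0596) or CO 3 (0.0508), and with a fit of the 2 conditions, with a range of 0.00539 to 0.0596. In TSW it fell by 0.44 (adjusted p = 0.0387, range 0.0059 to 0.12), a call lost without CO 1 (0.0539), CO 2 (0.0565), CO 3 (0.0606), TSW 1 (0.0764), TSW 2 (0.12) or TSW 3 (0.113), and with no filter or a fit of the 2 conditions. PSMC5 was at 151, 120 and 107 RPKM in MONO, 107, 98.9 and 102 in TSW, and 86.6, 107 and 91.6 in CO, with CO 2 level with the lowest MONO library. PSMC5 fell in CO (log2 fold change -0.39, adjusted p = 0.0407, range 0.0128 to 0.137), a call lost without CO 1 (0.137), CO 3 (0.12), MONO 1 (0.0645), MONO 2 (0.0599), TSW 1 (0.0616), TSW 2 (0.064) or TSW 3 (0.0627), and with no filter, a fit of the 2 conditions or the replicate block.

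PSMB5, PSMB6 and PSMB7 were not called in MM.1S. PSMB5 was at 39.6, 34.2 and 32.6 RPKM in MONO, 37.8, 33.8 and 33.9 in TSW, and 27.3, 36.5 and 37.5 in CO (adjusted p = 0.969 in TSW and 0.66 in CO). PSMB6 was at 279, 225 and 195 RPKM in MONO, 250, 235 and 226 in TSW, and 162, 221 and 185 in CO (adjusted p = 0.871 and 0.145). PSMB7 was at 138, 129 and 117 RPKM in MONO, 136, 121 and 118 in TSW, and 104, 128 and 114 in CO (adjusted p = 0.853 and 0.297). Conditions overlapped for these 3 genes. PSMG1 was at 107, 71.9 and 70.7 RPKM in MONO, 74.0, 68.3 and 83.2 in TSW, and 73.5, 67.0 and 70.5 in CO (adjusted p = 0.566 and 0.288), and MONO 1 stood above the rest. POMP was at 73.6, 46.1 and 49.9 RPKM in MONO, 51.7, 52.3 and 59.1 in TSW, and 47.4, 55.1 and 53.5 in CO (adjusted p = 0.906 and 0.667).

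PSMB4 and PSMA7, the beta and alpha subunits with the highest mean in MONO, were also called lower in MM.1S CO. PSMB4 was at 658, 576 and 512 RPKM in MONO, 537, 486 and 476 in TSW, and 362, 490 and 416 in CO. PSMA7 was at 306, 273 and 233 RPKM in MONO, 240, 217 and 225 in TSW, and 157, 232 and 209 in CO. CO lay below MONO for both, and TSW overlapped CO. PSMB4 fell in CO (log2 fold change -0.46, limma adjusted p = 0.0274), a call lost without CO 1 (0.10), CO 3 (0.0828) or MONO 2 (0.0524), and with a fit of the 2 conditions, with a range of 0.0159 to 0.10. PSMA7 fell in CO (log2 fold change -0.45, adjusted p = 0.0417, range 0.0196 to 0.144), a call lost without CO 1 (0.144), CO 3 (0.0784), MONO 1 (0.0776), MONO 2 (0.0826), TSW 1 (0.0617), TSW 2 (0.0642) or TSW 3 (0.0636), and with no filter, a fit of the 2 conditions, quantile normalization or the replicate block. PSMD10 was at 37.8, 36.8 and 39.5 RPKM in MONO, 46.3, 43.8 and 42.2 in TSW, and 45.5, 42.1 and 49.4 in CO, and rose in CO (log2 fold change 0.26, adjusted p = 0.0471, range 0.0245 to 0.175). The PSMD10 call was lost without CO 1 (0.103), CO 3 (0.175), MONO 2 (0.109), TSW 1 (0.0702), TSW 2 (0.0808) or TSW 3 (0.0695), and with voom, eBayes without trend, loess, median-of-ratios scaling, a fit of the 2 conditions or the replicate block. PSME3 was at 96.0, 102 and 99.7 RPKM in MONO, 98.5, 97.2 and 95.7 in TSW, and 96.4, 99.8 and 102 in CO, and was not called (adjusted p = 0.808 in TSW and 0.964 in CO). Differences between the lines were not tested.

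Most genes that carry the interferon signal to the immune subset were higher with stroma in RPMI8226, and so were some in MM.1S. Of 12 genes listed, 10 were higher and 1 lower in RPMI8226 TSW (29.0% and 38.0% of all genes), and 11 higher and 1 lower in CO (30.3% and 41.7% of all). In MM.1S, 5 were higher in TSW (14.4% of all) and 6 in CO (16.2% of all). In MM.1S TSW 1 was lower, which became 2 without MONO 1 and 0 without CO 2, MONO 2, MONO 3, TSW 2 or TSW 3. IRF1, which can bind elements of the kind marked in the PSMB8 promoter, was at 20.3 and 22.3 RPKM in RPMI8226 MONO, 55.5 and 55.8 in TSW, and 56.6 and 56.0 in CO. IRF1 rose by 1.35 in TSW (limma adjusted p = 1.19e-07) and by 1.36 in CO (adjusted p = 7.46e-08). In MM.1S IRF1 was at 34.7, 33.3 and 30.4 RPKM in MONO, 43.8, 39.5 and 42.7 in TSW, and 42.3, 48.7 and 47.0 in CO, and rose by 0.35 (adjusted p = 0.0175) and 0.48 (adjusted p = 0.00337).

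IRF9 and STAT2, which act together in the interferon response, rose steeply in RPMI8226. IRF9 was at 2.44 and 2.78 RPKM in MONO, 30.1 and 26.7 in TSW, and 28.5 and 25.4 in CO, and rose by 3.03 in TSW (limma adjusted p = 3.15e-09). STAT2 was at 6.18 and 5.35 RPKM in MONO, 53.1 and 51.6 in TSW, and 55.6 and 51.8 in CO, and rose by 3.02 in CO (adjusted p = 1.01e-09). NLRC5, which drives genes of antigen presentation, was at 4.56 and 4.24 RPKM in MONO, 8.46 and 9.70 in TSW, and 8.13 and 8.68 in CO, and rose by 0.90 in TSW (adjusted p = 1.64e-05) and 0.80 in CO (adjusted p = 2.9e-05). In MM.1S NLRC5 was at 0.679, 1.26 and 0.972 RPKM in MONO, 2.60, 2.13 and 2.13 in TSW, and 1.80, 2.54 and 2.29 in CO, and rose by 0.75 and 0.71. IRF8 was the gene that fell in RPMI8226, from 13.5 and 12.8 RPKM in MONO to 5.84 and 5.11 in TSW and 6.08 and 5.46 in CO.

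Most peptide-loading genes, which handle the peptides that the immune-type proteasome makes, were higher in RPMI8226. Of 11 genes listed, 7 were higher and 1 lower in TSW (29.0% and 38.0% of all genes), and 8 and 1 in CO (30.3% and 41.7%), while MM.1S had 3 and 2 (14.4% and 12.9%), and 2 and 2 (16.2% and 15.0%). The 2 lower in MM.1S TSW became 0 without TSW 1, TSW 2 or TSW 3 and 1 without MONO 2 or any of the CO libraries. In MM.1S CO the 2 lower became 0 without CO 1 or CO 3 and 1 without CO 2, MONO 1, MONO 2 or any of the TSW libraries, and the 2 higher became 4 without MONO 2. TAP1, which shares its start region with PSMB9, was at 33.5 and 36.2 RPKM in RPMI8226 MONO, 146 and 147 in TSW, and 128 and 130 in CO. TAP1 rose by 2.04 in TSW (limma adjusted p = 4.09e-09) and by 1.86 in CO (adjusted p = 6.09e-09). In MM.1S TAP1 was at 21.8, 29.0 and 23.1 RPKM in MONO, 39.3, 40.9 and 35.2 in TSW, and 27.9, 36.2 and 29.6 in CO, and rose in TSW (log2 fold change 0.63, adjusted p = 0.00489) without a call in CO (adjusted p = 0.0698). B2M was at 829 and 790 RPKM in RPMI8226 MONO, 2791 and 2510 in TSW, and 3133 and 3012 in CO, and rose by 1.71 and 1.92. ERAP1, which trims peptides, fell by 0.63 in RPMI8226 CO (adjusted p = 9.32e-05). In MM.1S CO, CALR fell by 0.40 (adjusted p = 0.0411) and PDIA3 by 0.39 (adjusted p = 0.0241).

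Among proteasome-associated genes, the receptor ADRM1 was lower with stroma in both lines. Of 16 listed, 2 were higher and 7 lower in RPMI8226 TSW (29.0% and 38.0% of all genes), the lower share being near that of all genes, and 1 and 10 in CO (30.3% and 41.7%). In MM.1S, 2 were higher and 1 lower in TSW (14.4% and 12.9%), and 3 and 1 in CO (16.2% and 15.0%). In RPMI8226 the 2 higher in TSW became 1 without MONO 2 or TSW 1. In MM.1S the 2 higher in TSW became 0 without TSW 3 and 1 without MONO 2 or TSW 2, the 3 higher in CO became 1 without CO 1, and the 1 lower in each became 2 without MONO 2. ADRM1, a ubiquitin receptor on the 19S particle, was at 60.7 and 59.2 RPKM in RPMI8226 MONO, 35.2 and 39.7 in TSW, and 29.2 and 28.0 in CO. In MM.1S ADRM1 was at 86.1, 75.2 and 66.9 RPKM in MONO, 52.1, 51.0 and 49.6 in TSW, and 45.5, 50.5 and 43.5 in CO. ADRM1 fell in both lines: by 0.67 (limma adjusted p = 2.9e-05) and 1.04 (8.03e-07) in RPMI8226 TSW and CO, and by 0.56 (0.00283) and 0.69 (0.000761) in MM.1S. UBQLN4, a shuttle that brings tagged proteins to the proteasome, was at 32.6 and 34.1 RPKM in RPMI8226 MONO, 14.2 and 16.2 in TSW, and 14.4 and 15.5 in CO, and fell by 1.11 in CO (adjusted p = 1.12e-06). ZFAND2A fell by 0.68 in RPMI8226 CO (adjusted p = 0.00111), while ZFAND5 rose there by 0.77 (adjusted p = 6.59e-05). In MM.1S CO, UCHL5 rose by 0.62 (adjusted p = 0.00317) and UBQLN1 by 0.37 (adjusted p = 0.031).

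Genes of the ubiquitin system, which tags proteins for the proteasome, were called in both directions in RPMI8226. The higher counts there were below the share of all genes. Of the ubiquitin and E1 genes, 2 of 11 tested were higher and 4 lower in RPMI8226 TSW (29.0% and 38.0% of all genes), and 2 and 7 in CO (30.3% and 41.7%), so the lower share in TSW was near that of all genes, while 2 of 12 were called in each MM.1S comparison with MONO, both lower, near the share of all genes (12.9% in TSW and 15.0% in CO). The 2 higher in RPMI8226 became 1 without MONO 2, and in TSW also without MONO 1. The 2 lower in MM.1S TSW became 0 without TSW 1 or TSW 2 and 1 without TSW 3, and those in CO 0 without CO 3 and 1 without CO 1, CO 2, MONO 3, TSW 1 or TSW 2. UBE2D1 was at 5.16 and 4.15 RPKM in RPMI8226 MONO, 6.32 and 6.47 in TSW, and 10.8 and 10.6 in CO, and rose by 1.06 in CO (limma adjusted p = 5.67e-06). UBA6 rose by 0.46 in CO (adjusted p = 0.00553). UBE2N fell by 0.73 in TSW (adjusted p = 2.63e-05), UBE2S by 0.68 (2.12e-05) and UBE4B by 0.65 (3.2e-05).

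Reads of some members may be hard to place, which was not measured. RefSeq pseudogenes named after 22 of the 50 members exist, 13 of them for PSMC1, whose level of 3.04 to 7.98 RPKM was the lowest of the ATPases. Without these 22, 5 of 26 tested members were higher and 15 lower in RPMI8226 TSW (29.0% and 38.0% of all genes), and 4 higher and 19 lower in CO (30.3% and 41.7%), so the higher counts stayed below the share of all genes. By the transcripts of GENCODE 44, exons of 13 members overlap another gene in the tables, PSME1 with EMC9 and PSME2 with RNF31 among them. PSMB8 and PSMB9 are counted there through a longer PSMB9 transcript, while their RefSeq spans do not overlap. Whether counting used the strand is not stated.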

How the data were processed

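The deposited tables hold log2 values made by the authors, log2(RPKM + 1) plus 0.0001, from Subread alignment to hg38 and featureCounts on RefSeq genes. They were turned back to RPKM, and counts were recovered from RPKM and the read pairs of each library; 100.000% of values above 0 were whole within 0.05, over 17662 genes. Each line was tested apart with limma (lmFit, contrasts.fit, eBayes with trend) on log2(RPKM + 1), over genes with a mean of at least 1 RPKM: 10153 in MM.1S and 10319 in RPMI8226. The Benjamini-Hochberg correction was made within each comparison, and adjusted p below 0.05 was a call. A second rule also required a fold change above 1.5. The code was checked on simulated data.

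Members were chosen by symbol. Named genes were the immune subset, PSMB5, PSMB6, PSMB7, POMP, NFE2L1, the most and least abundant member of each role by the mean of a line's libraries, the 3 strongest called rises and falls of each comparison, and from each pathway list some of the strongest of each direction, with TAP1, IRF1 and NLRC5. Stromal, plasma-cell, interferon, peptide-loading, NRF1, proteasome-associated and ubiquitin lists were written from general knowledge, and members and lists were chosen with earlier results of these data known. Same-numbered libraries share a number, and pairing is not stated. Alternatives were voom on recovered counts, median-of-ratios scaling, quantile normalization, loess correction for GC content and length (chosen after seeing the data), no filter, a filter of 5 RPKM, a pseudocount of 0.1, eBayes without trend, a replicate block, a fit of the 2 conditions compared, and leaving out each library. Promoters and exon overlaps came from RefSeq GRCh38.p14 and GENCODE 44. Python 3.11.15, numpy 2.4.6, pandas 2.3.3, matplotlib 3.10.9, R 4.3.3 and limma 3.58.1 were used.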

Additional observations from a re-analysis of the deposited data

Results flagged for a closer look

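The log2 fold change of PSMD12 in TSW against MONO was 0.25 in MM.1S (0.13 without MONO 2) and -0.68 in RPMI8226, 0.9272 apart, and the difference was not tested.

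In CO against MONO, PSMD12 had 0.28 in MM.1S (0.17 without MONO 2) and -0.51 in RPMI8226 on the log2 scale, 0.7886 apart and also not tested.

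PSMD5 in TSW against MONO had a log2 fold change of 0.26 in MM.1S (0.11 without MONO 1) and -0.24 in RPMI8226, where the call was lost under 7 alternatives, a distance of 0.5012 that was not tested.

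For PSMD10 in TSW against MONO the log2 fold change was 0.21 in MM.1S and -0.23 in RPMI8226 (-0.05 without MONO 1 and -0.41 without MONO 2), a distance of 0.4388 that was not tested.

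PSME4 had log2 fold changes in TSW against MONO of 0.38 in MM.1S (0.18 without MONO 1) and -0.09 in RPMI8226 (-0.03 without TSW 2), 0.4661 apart, with the difference not tested.

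PSME4 in CO against MONO had 0.38 in MM.1S (0.18 without MONO 1) and -0.16 in RPMI8226 (-0.30 after loess) on the log2 scale, 0.5393 apart, with the difference not tested.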

How the results depend on the processing

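Of 85 called values of named members, 57 were kept under every alternative, 28 were lost under some, and 0 were reversed. Named genes of the pathway lists are not in these counts. For members higher in MM.1S TSW against MONO, the 2 became 5 after loess, 4 after quantile normalization and 1 with a fold change above 1.5. The 4 lower there became 2 without an expression filter, 0 in the fit of the 2 conditions compared, 2 with a replicate block and 0 with the fold rule. The 2 higher in MM.1S CO against MONO became 5 after quantile normalization, and 1 with eBayes without trend, median-of-ratios scaling, the 2 conditions compared, the replicate block, voom or the fold rule. The 10 lower there became 6 without a filter, 2 in the fit of the 2 conditions, 5 with the replicate block and 0 with the fold rule.

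In RPMI8226 TSW against MONO, the 8 higher became 4 and the 28 lower 7 with the fold rule. In CO against MONO, the 4 higher became 7 after loess and the 37 lower 21 with the fold rule. In CO against TSW, the 35 lower became 22 after quantile normalization and 4 with the fold rule. The replicate block gave 29, 39 and 37 lower in these 3 comparisons.

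Leaving out 1 library gave 1 to 4 higher and 0 to 5 lower in MM.1S TSW against MONO, 1 to 4 higher and 2 to 11 lower in CO against MONO, and 0 and 0 in CO against TSW. In RPMI8226 it gave 8 higher and 20 to 25 lower in TSW against MONO, 4 higher and 35 to 39 lower in CO against MONO, and 0 to 1 higher and 12 to 29 lower in CO against TSW. It leaves 1 library in a condition of RPMI8226, which was taken to vary like the other groups. Correlations, between same-numbered libraries, which share only a number, of deviations from the mean of the condition ran from -0.38 to 0.286 in MM.1S and from 0.164 to 0.271 in RPMI8226, where there are 2 pairs.

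The median shift of all genes in RPMI8226 CO against MONO went from -0.09 to 0.01 under median-of-ratios scaling. The share of all calls that were lower in RPMI8226 CO against TSW went from 63.3% to 52.0% under median-of-ratios scaling and 50.8% under quantile normalization. In MM.1S it went from 11.4% (39 higher and 5 lower) to 22.4% under loess (45 higher and 13 lower, over 9280 genes). The cause was not tested.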
